A study of Mus musculus with 3 samples.

Results

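The replication-dependent histone genes were examined in mouse CD4+ T cells. They were taken as all genes whose symbol begins with Hist1h, Hist2h, Hist3h or Hist4h, the older names of the 4 genomic histone clusters. Of 31053 genes in the feature table, 67 had such a symbol and 55 of them had 10 or more UMIs over the 3 libraries. A UMI is a random tag that counts a captured mRNA molecule once, so levels were compared between genes without division by length. Such levels, and any order of abundance below, are of mRNA as captured and assigned to a gene. Both steps may differ between these genes, as described below. The 55 comprised 5 linker histone H1, 13 H2A, 15 H2B, 9 H3 and 13 H4 genes. The other 12 had 0 to 7 UMIs each, and 4 of these (Hist1h1t, Hist1h2aa, Hist1h2ba and Hist1h2bq) had none in any library.

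Single-cell RNA sequencing had been performed on naïve CD4+ T cells enriched from the spleens of C57BL/6 mice and sorted as 7-AAD-negative CD3+CD4+ cells. There was 1 library in each of 3 groups. The first was from Ift20 f/f mice, here WT, given DPBS with no stimulation (none), the second from Ift20 f/f mice stimulated for 24 h with anti-CD3 and anti-CD28 at 1 μg/mL each (CD3/CD28), and the third from Ift20 f/f CD4 cre mice, here IFT20-KO, with the same CD3/CD28 stimulation. All mice carried the floxed Ift20 alleles, and in the IFT20-KO the recombinase was driven by the Cd4 promoter, which is active from the thymus on. Neither the labels nor the methods give the number of mice behind a library, and unstimulated IFT20-KO cells were not analysed here. Values are given below in the order WT none, WT CD3/CD28 and IFT20-KO CD3/CD28.

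Core histones H2A, H2B, H3 and H4 form the nucleosome, and H1 binds the linker DNA between nucleosomes. Cells make most of their histone mRNA from clustered gene copies during S phase, under the coactivator NPAT. Such an mRNA classically ends just after a short stem-loop, which is bound by SLBP, in place of a poly(A) tail, and it decays when replication stops. Some of these genes also yield polyadenylated mRNAs that run past the stem-loop, mainly described in cells that do not divide. Droplet libraries of this kind begin reverse transcription from an oligo-dT primer, so mRNAs without a poly(A) tail are expected to be captured poorly.

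After barcodes with 200 genes or fewer or 15% or more mitochondrial UMIs had been left out, 8031, 9903 and 13920 barcodes remained with 37133949, 116979076 and 106435143 UMIs. Ift20, the targeted gene, stood at 64.4, 76.0 and 6.60 CPM, the UMIs of a gene per 1000000 UMIs of the library. The T cell markers were all present in every library, summed B cell, plasma cell, NK cell and myeloid markers were at most 3.55 CPM, CD8 markers at 9.16 to 28.7 CPM, erythroid markers at most 0.01 CPM and platelet markers at 0. Between 114 and 197 barcodes were shared by each pair of libraries. Median depth was 4627, 12167 and 5014.5 UMIs. Barcodes under 4056 UMIs, a limit set from the stimulated WT median, made up 34.5%, 23.2% and 48.0% of the libraries, and those of the stimulated libraries stood apart with a median mitochondrial share of 10.3% and 5.66%, against 1.26% and 1.08% in deeper cells. Gene and class ratios were therefore also computed without the stimulated barcodes under this depth, with WT none kept whole. Where given, those values are named as of the deeper cells. Ratios between whole libraries include the shallow barcodes unless the deeper cells are named. Summed ratios of the 3′ end classes and blocks below were not recomputed in this way.

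Because the annotated 3′ end bears on what a poly(A)-primed library can capture, the histone stem-loop was looked for in the GENCODE M21 transcripts. It was found in 40 of the 55 genes, against 6 of 21884 other protein-coding genes. The 16-letter stem-loop was the same in 21 of the 40, and 7 H4 genes shared a variant of it. Stem-loops are shown for genes that the results below turn on, 5′ to 3′, with the stem-loop in capitals and 5 flanking bases on either side.
Hist1h1e: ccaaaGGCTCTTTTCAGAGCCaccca
Hist1h1c: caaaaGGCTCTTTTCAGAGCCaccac
Hist1h2bj: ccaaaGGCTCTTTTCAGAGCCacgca
Hist1h2bm: acaaaGGCTCTTTTCAGAGCCactaa
Hist1h3a: ccaaaGGCTCTTTTCAGAGCCacaca
Hist1h3c: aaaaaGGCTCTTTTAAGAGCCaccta
Hist2h2ac: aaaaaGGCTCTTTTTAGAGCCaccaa
Hist1h4d: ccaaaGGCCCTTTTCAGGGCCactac
Hist1h4i: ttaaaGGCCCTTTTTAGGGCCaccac
Hist4h4: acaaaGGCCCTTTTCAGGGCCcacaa
Hist1h4d and Hist4h4 carry the variant of the 7 H4 genes. The genes shown all carry the element. They differ in the greatest distance that an annotated transcript with the element runs past it. That was 23 bases for Hist1h2bj, 37 for Hist1h3a, 46 for Hist1h2bm, 74 for Hist1h3c and 57 for Hist2h2ac. In Hist1h4i it was 330 bases, in Hist1h4d 770, in Hist1h1c 840, in Hist1h1e 1153 and in Hist4h4 2445. A stem-loop in an annotated transcript is a description of the annotation and not a measured 3′ end.

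The 55 genes together gave 7513, 18466 and 29674 UMIs, or 202 CPM (95% exact Poisson interval, 198 to 207) in WT none, 158 CPM (156 to 160.2) in WT CD3/CD28 and 279 CPM (276 to 282) in IFT20-KO CD3/CD28. The log2 ratio of stimulated to unstimulated WT was -0.36 (-0.40 to -0.32) and that of stimulated IFT20-KO to stimulated WT was 0.82 (0.79 to 0.85), with exact binomial intervals. In the deeper cells these were -0.43 (-0.47 to -0.39) and 0.58 (0.55 to 0.61). With 1 library per group no test could be made, and all intervals cover counting error only. The stimulated WT library stands in both comparisons. Fewer cells that express a gene and less mRNA per cell cannot be told apart in such sums. Counting UMIs per cell without scaling reversed the first ratio to 0.995, where the median over all genes was 1.24. Thinning each cell to 1400 UMIs brought it to -0.018. Over whole libraries or without the shallow stimulated barcodes, the scaled or thinned ratio thus stayed below 0, from -0.43 to -0.018. The unscaled count lay above 0. So did the scaled ratio between barcodes under 4056 UMIs alone, 0.67 (0.57 to 0.77).

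Replication-independent histone genes, most of which make polyadenylated mRNA throughout the cell cycle, held most of the histone UMIs. They summed to 2848, 4628 and 4679 CPM, so that the clustered genes made up 6.63%, 3.30% and 5.62% of both together. These are shares of captured mRNA, in which mRNAs without a poly(A) tail are expected to be under-represented.

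**Figure D1:**
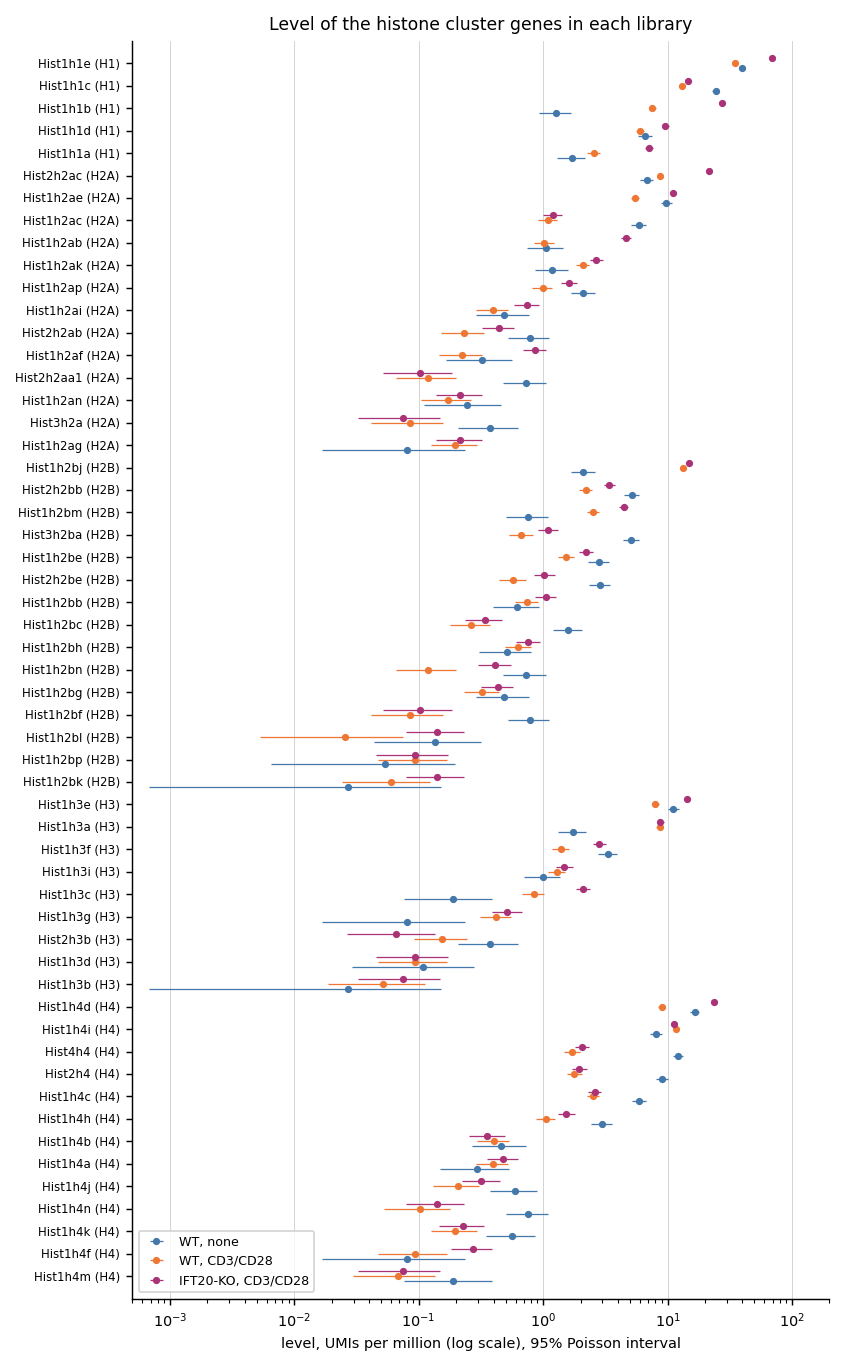
Levels of the 55 histone cluster genes in the 3 libraries in CPM on a log axis, grouped by histone class, with bars for the 95% exact Poisson interval. Hist1h1e has the highest level in each library, and Hist1h1b, Hist1h2bj and Hist1h3a lie above their WT none level in both stimulated libraries.

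Linker histones took the largest share of the UMIs of the 55 genes, 36.2%, 40.6% and 45.7%, and Hist1h1e had the highest level of any of them in each library. The 5 H1 genes summed to 73.2, 64.0 and 127 CPM, with log2 ratios of -0.19 (-0.26 to -0.13) for stimulation and 0.99 (0.95 to 1.03) for the knockout. Hist1h1e (GRCm38 chr13:23620629-23622558, minus strand) stood at 39.3, 34.9 and 68.7 CPM. Its ratio was -0.17 (-0.26 to -0.09) for stimulation and 0.98 (0.92 to 1.03) for the knockout, so it was close to level between the WT libraries and higher in IFT20-KO. Hist1h1b (chr13:21779883-21780625, minus strand), which encodes the H1 variant associated with dividing cells, had 47, 880 and 2916 UMIs, or 1.27, 7.52 and 27.4 CPM. It was higher with stimulation, 2.57 (2.15 to 3.03), and higher again in IFT20-KO, 1.86 (1.76 to 1.98). Among the deeper cells these ratios were 2.36 and 1.48. The WT none level rested on few cells, since 29 of the 47 UMIs came from 5 of the 20 unstimulated cells with most S-phase or G2/M UMIs, which are described below. Without those 20 cells it was 0.487 CPM and the stimulation ratio 3.95 (3.28 to 4.71), and as a mean of per-cell fractions, with all cells, the ratio was 3.73.

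The remaining linker genes differed from each other. Hist1h1c (chr13:23738808-23740367), the second most abundant H1 mRNA in both WT libraries, stood at 24.3, 13.1 and 14.6 CPM, lower with stimulation at -0.90 (-1.01 to -0.78) and with a knockout ratio of 0.16 (0.06 to 0.26). Hist1h1d stood at 6.62, 5.99 and 9.61 CPM, with a stimulation ratio whose interval spanned 0, -0.14 (-0.36 to 0.07), and a knockout ratio of 0.68 (0.54 to 0.82). Hist1h1a was scarce, at 1.70, 2.55 and 7.07 CPM, with 0.59 (0.19 to 1.00) and 1.47 (1.28 to 1.67). Thus 4 of the 5 H1 genes had a knockout ratio over 0.58, the 1.5-fold line, against 14% of all genes, and Hist1h1c did not. In the deeper cells 3 of the 5 did, against 7.92% of all genes, with Hist1h1d at 0.50.

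The 13 H2A genes summed to 29.8, 20.8 and 45.5 CPM, with log2 ratios of -0.52 (-0.62 to -0.41) and 1.13 (1.06 to 1.20). Without the 20 unstimulated cells the first was -0.25 (-0.36 to -0.13). H2A pairs with H2B in the nucleosome. Hist1h2ae stood at 9.78, 5.51 and 11.0 CPM, but 131 of its 363 UMIs in WT none came from 6 of the 20 cells. Without them its level there was 6.28 CPM, under the 6.58 CPM of Hist2h2ac, and its stimulation ratio went from -0.83 (-1.02 to -0.64) to -0.19 (-0.41 to 0.03). Hist2h2ac (chr3:96220361-96220880, minus strand) was at 6.79, 8.71 and 21.6 CPM, with a stimulation ratio of 0.36 (0.16 to 0.56), whose interval spanned 0 in the deeper cells, 0.19 (-0.02 to 0.40). Their knockout ratios were 1.00 (0.86 to 1.14) and 1.31 (1.21 to 1.42). Hist1h2ab had 39, 120 and 493 UMIs, 1.05, 1.03 and 4.63 CPM, and its knockout ratio of 2.17 (1.88 to 2.47) was the highest of the named genes. Its stimulation ratio was -0.03 (-0.57 to 0.53), and 0.78 (0.12 to 1.51) without the 20 cells, of which 3 held 17 of the 39 UMIs. Hist1h2af was scarce, at 0.323, 0.222 and 0.855 CPM, with a knockout ratio of 1.94 (1.30 to 2.63). Hist1h2ac behaved otherwise: at 5.87, 1.09 and 1.20 CPM it was lower with stimulation, -2.43 (-2.76 to -2.11), and its knockout interval spanned 0, 0.15 (-0.22 to 0.51).

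The 15 H2B genes summed to 23.7, 23.1 and 30.5 CPM, and their stimulation ratio of -0.04 (-0.15 to 0.08) spanned 0, with large ratios of opposite sign among the genes. Hist1h2bj (chr13:22043214-22043676, plus strand) stood above all other H2B genes after stimulation. It had 78, 1552 and 1575 UMIs, or 2.10, 13.3 and 14.8 CPM, with a stimulation ratio of 2.66 (2.33 to 3.01), the highest of the 55 genes on this scale. As a mean of per-cell fractions it was 2.63, under Hist1h1b at 3.73 and Hist1h3g at 4.52, and without the 20 unstimulated cells it was 2.85, under Hist1h1b at 3.95 and Hist1h3c at 2.95. The stimulated libraries were nearly level for it, 0.16 (0.06 to 0.26). Hist1h2bm was at 0.754, 2.51 and 4.43 CPM, with 1.74 (1.18 to 2.35) and 0.82 (0.61 to 1.03). In contrast, Hist3h2ba (chr11:58948920-58949533, plus strand) was at 5.09, 0.667 and 1.10 CPM and had a stimulation ratio of -2.93 (-3.33 to -2.54). Hist1h2bc, Hist1h2bn and Hist2h2bb were lower with stimulation too, at -2.58, -2.60 and -1.22. Outside the rule for named genes, Hist1h2bf had the lowest ratio of all, -3.19 (-4.39 to -2.11), on 29, 10 and 11 UMIs.

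The 9 H3 genes summed to 18.0, 20.8 and 30.3 CPM and were the only class whose summed stimulation interval lay above 0, 0.21 (0.09 to 0.34), while the knockout ratio was 0.54 (0.46 to 0.62). Hist1h3e, the most abundant of them in WT none and IFT20-KO, was at 11.1, 7.98 and 14.4 CPM, lower with stimulation and higher in IFT20-KO at -0.48 (-0.65 to -0.31) and 0.85 (0.73 to 0.97). Hist1h3a (chr13:23761853-23762386, minus strand) was higher with stimulation and had a knockout interval that spanned 0. It had 64, 1011 and 933 UMIs, 1.72, 8.64 and 8.77 CPM, a stimulation ratio of 2.33 (1.96 to 2.71) and a knockout ratio of 0.02 (-0.11 to 0.15). The 9 H3 genes together had 667 UMIs in WT none and 2438 in WT CD3/CD28. The summed stimulation ratio of H3 thus rested largely on Hist1h3a, and it was not computed without this gene. Hist1h3c and Hist1h3g had few UMIs in WT none, 7 and 3, and ratios of 2.15 (1.05 to 3.50) and 2.37 (0.74 to 4.70). Of these UMIs, 3 and 3 came from the 20 cells. The 2 genes differed in the knockout comparison, where Hist1h3c had 1.32 (0.97 to 1.68) and the interval of Hist1h3g spanned 0, 0.30 (-0.28 to 0.89).

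The 13 H4 genes had the lowest summed stimulation ratio of the classes, with 57.7 CPM in WT none and 29.1 CPM in WT CD3/CD28, -0.99 (-1.07 to -0.91), and were at 45.2 CPM in IFT20-KO, 0.63 (0.57 to 0.70). They made up 28.5% of the UMIs of the 55 genes in WT none, 18.4% in WT CD3/CD28 and 16.2% in IFT20-KO. The H4 genes with the lowest ratios among those named were 2 outside the main cluster. Hist4h4 (chr6:136801553-136804415, minus strand), the single gene of its cluster, stood at 12.2, 1.71 and 2.06 CPM, with -2.83 (-3.08 to -2.59). Hist2h4 (chr3:96261682-96263311, minus strand) stood at 9.08, 1.79 and 1.95 CPM, with -2.34 (-2.60 to -2.09). Neither had a knockout interval clear of 0, at 0.27 (-0.02 to 0.55) and 0.13 (-0.15 to 0.41). Hist1h4d was the most abundant H4 gene in WT none and IFT20-KO, at 16.5, 8.95 and 23.8 CPM, and combined a ratio of -0.88 (-1.03 to -0.74) with 1.41 (1.31 to 1.52). Hist1h4i was higher with stimulation and level between genotypes, at 8.05, 11.6 and 11.3 CPM, 0.53 (0.35 to 0.71) and -0.03 (-0.15 to 0.08). Hist1h4c was at 5.92, 2.52 and 2.60 CPM and Hist1h4b at 0.458, 0.402 and 0.357 CPM, with knockout intervals that spanned 0.

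Of the 55 genes, 8 were 2-fold or more higher and 22 were 2-fold or more lower in WT CD3/CD28 than in WT none. Among all genes with 10 or more UMIs, 18.7% were as much higher and 23.7% as much lower, so the lower count, 40.0% of the 55, stood above the background and the higher count, 14.5%, did not. The median ratio of the 55 was -0.54, against -0.11 over all genes. Of the 55 ratios, 20 lay above the median of all genes. Counting intervals lay above 0 for 10 genes and below 0 for 27, with no share of all genes set beside these counts. In the deeper cells, 8 were higher and 23 lower, against 18.1% and 26.7% of all genes. Without the 20 unstimulated cells 8 were higher and 21 lower, again with no share of all genes beside them. Counted as UMIs per cell with no scaling, 25 were higher and 9 lower, and the median turned to 0.81, below the 1.24 of all genes. That all-gene median lies above the 2-fold line, so most genes were 2-fold or more higher on this scale.

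At 1.5-fold, 24 of the 55 genes (43.6%) were higher and 1 was lower in IFT20-KO than in WT CD3/CD28, against 14% and 3.97% of all genes. The median ratio was 0.50, against 0.14 over all genes, and 48 of the 55 ratios were above 0. Above the median of all genes lay 43 of the 55. Counting intervals lay above 0 for 28 genes and below 0 for none, with no share of all genes set beside these counts. The gene that was lower, Hist2h3b, had 14, 18 and 7 UMIs and a ratio of -1.23 (-2.73 to 0.10). In the deeper cells 22 were higher and 2 lower, against 7.92% and 5.5% of all genes, and the median was 0.36 against 0.05. The summed knockout ratios of the classes were smaller there, 0.72 for H1, 0.82 for H2A, 0.32 for H2B, 0.40 for H3 and 0.39 for H4. Of genes with high ratios, Hist1h2ab had 1.72 (1.38 to 2.07) in the deeper cells, Hist1h4d 0.97 (0.85 to 1.09) and Hist1h3c 0.82 (0.41 to 1.22). Without scaling to total UMIs 11 were higher and 8 lower, with no share of all genes set beside them. The median was then -0.13 and that of all genes -0.49, so the direction of the median held relative to other mRNA only. Beside these ratios, IFT20-KO had more shallow barcodes, and its S-phase list summed to 3708 CPM against 3143 CPM in WT CD3/CD28. The part of either in the result was not tested. Ratios by depth and by S-phase bin are given without such a test.

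**Figure D2:**
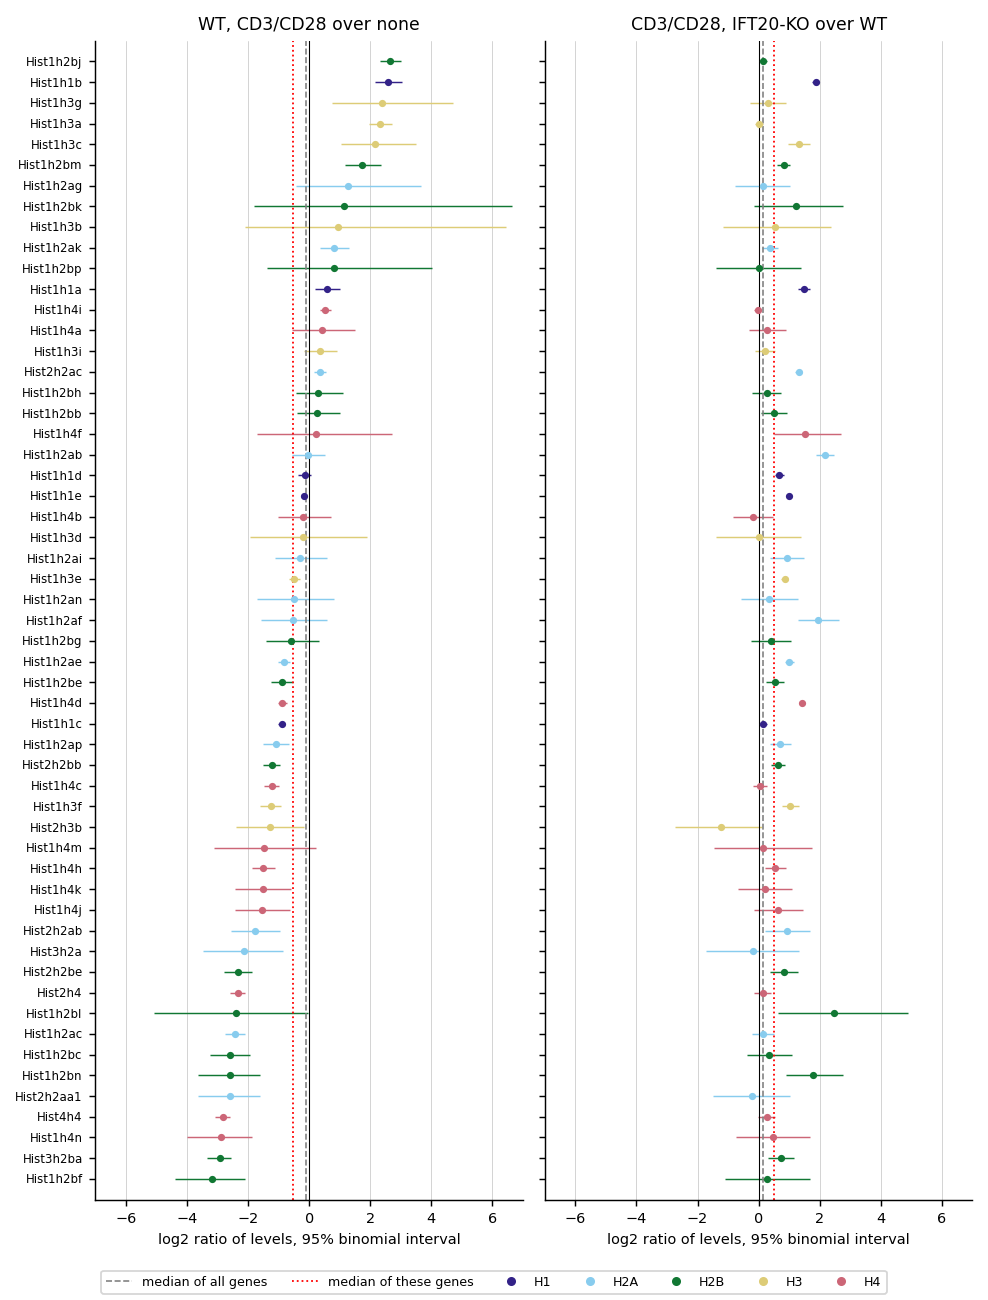
Log2 ratio of each of the 55 histone cluster genes for stimulation (left) and knockout (right), ordered by the stimulation ratio and coloured by class, with 95% exact binomial intervals. Dashed lines mark the median of all genes, at -0.11 and 0.14, and dotted lines that of the 55 genes, at -0.54 and 0.50. Hist1h2bj and Hist1h1b head the order, and Hist3h2ba and Hist1h2bf close it. The panels share the stimulated WT library.

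The genes were next divided by their annotated 3′ end, with classes set after the values had been seen. Only annotated transcripts that held the stem-loop were used, and of these the one that ran furthest past it. In 20 genes that transcript ended within 100 bases after the stem-loop, and in 20 it ran more than 100 bases past. In 15 no annotated transcript held the stem-loop. Some of the 15 have short annotated transcripts, such as 381 bases for Hist1h2bl, 393 for Hist1h2ai and 312 for Hist1h4k. The element was looked for only after the coding sequence, so a transcript annotated without a 3′ untranslated part could not show it. These genes are therefore not shown to lack the element. The first class summed to 21.5, 39.5 and 62.7 CPM, and its stimulation ratio was 0.87 (0.77 to 0.98). Hist1h2bj, Hist1h2bm, Hist1h3a, Hist1h3c and Hist1h3g belonged to it. Hist1h2bj and Hist1h3a gave 1552 and 1011 of the 4618 UMIs of this class in WT CD3/CD28. In WT none they gave 78 and 64 of 800. The summed ratio of the class thus rested largely on these genes, and it was not computed without them. The second class, with Hist1h1e, Hist1h1c, Hist1h4d, Hist2h4 and Hist4h4, summed to 162, 100.4 and 169.6 CPM, a ratio of -0.69 (-0.74 to -0.65). It held 80.3% of the UMIs of the 55 genes in WT none and 63.6% in WT CD3/CD28. The class without an annotated stem-loop was at 18.4, 18.0 and 46.5 CPM, a ratio of -0.03 (-0.16 to 0.10), and held Hist1h1b.

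By gene, 7 of 20 in the first class were 2-fold or more higher on stimulation and 6 were lower, while 0 of 20 in the second class were higher and 8 lower. Among the 15 without an annotated stem-loop, 1 was higher and 8 lower. Over all genes 18.7% were as much higher and 23.7% as much lower. The medians were 0.31, -0.88 and -1.22. With at least 50 UMIs per gene, 5 of 14 were higher and 5 lower in the first class, its median was 0.11, and the second class had 0 of 18 higher and 7 lower with a median of -0.88. The 12 genes with the letters AATAAA, the usual polyadenylation signal, after the stem-loop had a median of -1.21. For the knockout the 3 classes had summed ratios of 0.67 (0.61 to 0.72), 0.76 (0.72 to 0.79) and 1.37 (1.30 to 1.44), all above 0. Histone class was not balanced over them, since the first held 0 H1 genes and 5 of 13 H4 genes, and the second 3 H1 and 7 H4 genes.

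**Figure D3:**
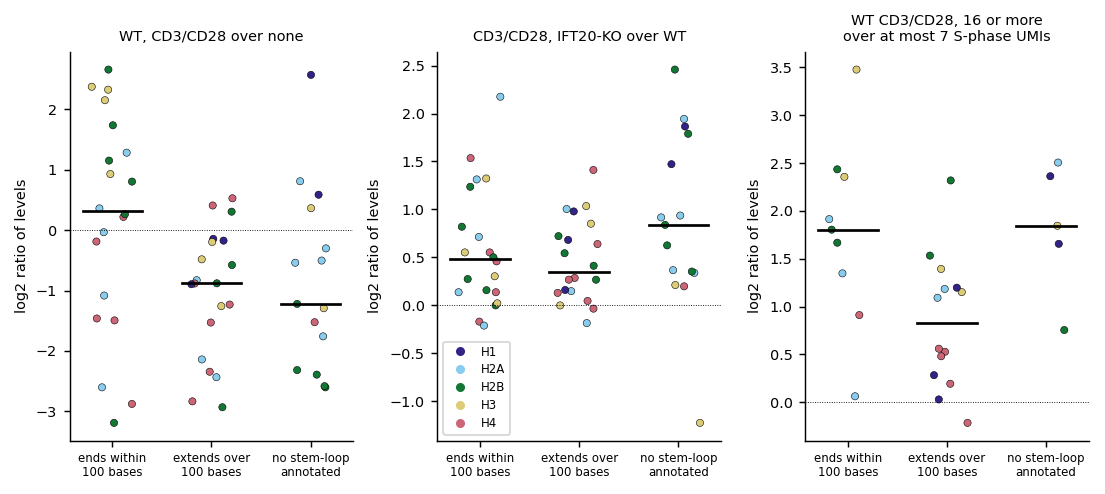
Log2 ratios of histone cluster genes by annotated 3′ end for stimulation (left), knockout (middle) and the S-phase step in WT CD3/CD28 (right), with 1 point per gene coloured by class and a line at the class median. For stimulation, 7 genes that end within 100 bases after the stem-loop lie above 1, while none that extends further exceeds 0.53. The right panel holds only genes with 50 or more UMIs in the bins compared.

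Promoters were read from RefSeq for GRCm38.p6, from 250 bases before to 50 bases after the annotated start, and 49 of the 55 genes matched. CCAAT, on either strand, occurred in 40 of the 49 against 37.4% of 32851 promoters. It was in every H1, H2A, H2B and H3 promoter matched and in 3 of 12 H4 promoters. TATAAA on the sense strand was in 25 of the 49 against 8.32% of all, and ATTTGCAT, the octamer of H2B promoters, on either strand in 10 against 1.74%, of which 5 were H2A and 5 H2B. The medians of the stimulation ratio were -0.25 with CCAAT and -1.49 without, but the genes without it were all of class H4. The promoters of Hist1h1b (chr13:21780576-21780875, minus strand), the H1 gene with the highest stimulation ratio, and Hist4h4 (chr6:136804382-136804681, minus strand), with one of the lowest, are shown for contrast, with TATAAA and CCAAT (or ATTGG, its reverse complement) in capitals.
Hist1h1b: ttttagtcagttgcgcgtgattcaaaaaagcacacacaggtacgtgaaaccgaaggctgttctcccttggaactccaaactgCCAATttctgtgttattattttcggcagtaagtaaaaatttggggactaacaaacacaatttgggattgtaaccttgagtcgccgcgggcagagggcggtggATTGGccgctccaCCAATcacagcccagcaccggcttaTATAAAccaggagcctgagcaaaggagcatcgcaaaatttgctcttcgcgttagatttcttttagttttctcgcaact
Hist4h4: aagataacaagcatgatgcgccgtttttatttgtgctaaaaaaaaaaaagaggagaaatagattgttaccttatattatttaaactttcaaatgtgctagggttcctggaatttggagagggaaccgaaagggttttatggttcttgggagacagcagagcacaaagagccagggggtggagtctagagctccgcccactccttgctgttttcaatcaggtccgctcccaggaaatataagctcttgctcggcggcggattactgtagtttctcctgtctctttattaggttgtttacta
The Hist1h1b window held TATAAA and 3 copies of CCAAT over both strands. The Hist4h4 window held none of the motifs searched. A match is a description of these letters, and no binding was measured.

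By position, 45 of the 55 genes lay in the Hist1 cluster on chromosome 13, which an intervening gap of 1.49 Mb divided into 2 blocks. The block nearer the chromosome start held 18 genes from Hist1h2bl to Hist1h2bj (chr13:21715763-22043676, GRCm38). It summed to 20.3, 40.9 and 66.5 CPM, a stimulation ratio of 1.01 (0.90 to 1.12). The other held 27 genes from Hist1h4h to Hist1h1a (chr13:23531050-23764406) and summed to 139, 101 and 180.5 CPM, a ratio of -0.46 (-0.51 to -0.41). Hist1h1b, Hist1h2bj and Hist1h4i held most UMIs of the first block, whose median gene was at 0.03. The knockout ratios of the blocks were 0.70 and 0.84. The Hist2 cluster of 7 genes on chromosome 3 was at 25.7, 13.8 and 28.6 CPM, -0.90 (-1.02 to -0.78) and 1.05 (0.97 to 1.14). The 2 genes of Hist3 on chromosome 11 were at 5.47, 0.752 and 1.17 CPM, -2.86 (-3.24 to -2.49) for stimulation.

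**Figure D4:**
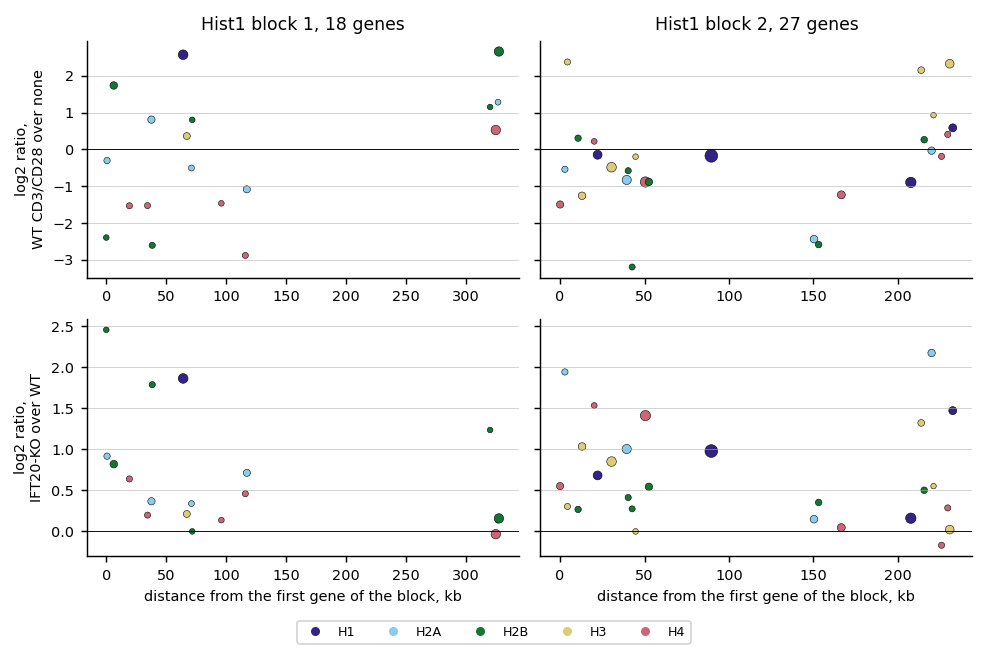
Log2 ratios for stimulation (top) and knockout (bottom) of the 18 and 27 genes of the 2 Hist1 blocks, by distance from the first gene of the block in kb, with 1 point per gene coloured by class and sized by mean level. High and low stimulation ratios lie side by side in both blocks.

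Neighbours that share a promoter region did not always have like ratios. Of 8 divergent pairs whose starts lay 176 to 660 bases apart, 3 had stimulation intervals that did not overlap. No share of other gene pairs was set beside this count, so it does not show whether neighbours differ more or less than other pairs. In the first, 296 bases apart, Hist1h2ak had 44, 243 and 285 UMIs and a ratio of 0.81 (0.34 to 1.31), while Hist1h2bn had 27, 14 and 44 UMIs and -2.60 (-3.65 to -1.62). In the second, 239 bases apart, Hist2h2ac had 0.36 (0.16 to 0.56) and Hist2h2be, with 106, 67 and 109 UMIs, had -2.32 (-2.78 to -1.86). In the third, 660 bases apart, Hist1h2bh had 0.31 (-0.44 to 1.12) and Hist1h3f -1.26 (-1.61 to -0.91). Other pairs had ratios near each other, such as Hist1h2ac and Hist1h2bc, 251 bases apart, at -2.43 and -2.58.

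Many of these genes resemble each other, so a read could have fitted more than 1 of them. In 39 of the 55, at least 20% of the 60-base windows of the longest transcript also occurred in another cluster gene, and 6 (Hist1h1a, Hist1h1b, Hist2h2bb, Hist2h2be, Hist3h2ba and Hist4h4) shared none. Hist1h2bj shared 55.9% of its windows, all of them with Hist1h2bq, which had 0 UMIs. Hist1h3a shared 44.2% and Hist1h1e 30.6%, the latter mainly through Hist1h2be, which overlaps it on the same strand. Levels of genes with shared windows are uncertain by an amount that was not measured. By the annotation, 52 of the 55 genes had single-exon transcripts only, 6 overlapped another gene on the same strand and 16 one on the other strand. The 16 genes with under 20% of shared windows had a summed stimulation ratio of -0.98 (-1.04 to -0.92) and a knockout ratio of 0.96 (0.91 to 1.00), and the 39 others 0.08 (0.02 to 0.13) and 0.75 (0.72 to 0.78).

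Cells at or above 4056 UMIs were then ordered by S-phase and G2/M transcripts, using lists of 43 and 54 detected genes that hold no histone cluster gene. Each cell was thinned to 4056 UMIs to place it, and levels were taken from all its UMIs. In WT CD3/CD28 the 55 genes stood at 123 CPM over the 106 cells with at most 1 S-phase UMI and at 216 CPM (212 to 222) over the 1999 cells with 16 or more, a log2 ratio of 0.81 (0.59 to 1.05). Since few cells were so low, the 2502 cells with at most 7 were also taken as the base, which was decided only once the bins were known, with 116 CPM and a ratio of 0.90 (0.84 to 0.96). The levels of the lower bins ranged from 102 to 128 CPM and that of 8 to 15 UMIs was 126 CPM, so the step lay at the top. In IFT20-KO CD3/CD28 the ratio was 0.81 (0.42 to 1.23) over 30 cells with at most 1 and 0.51 (0.46 to 0.57) over 1469 with at most 7, with 277 CPM in the top bin. The step along G2/M transcripts, from at most 7 to 16 or more, was from 123 to 419.6 CPM in WT CD3/CD28, 1.78 (1.71 to 1.84), and from 195 to 523 CPM in IFT20-KO, 1.42 (1.36 to 1.49).

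The level was highest in cells high for both lists. In WT CD3/CD28, 1599 cells under 8 UMIs of each list stood at 114 CPM, 554 cells with 16 or more S-phase but under 8 G2/M UMIs at 146 CPM, and 300 cells with 16 or more of each at 452 CPM (435 to 470.3). In IFT20-KO the corresponding levels were 192, 209.6 and 546 CPM. Only 11 WT cells had 16 or more G2/M and under 8 S-phase UMIs, and they stood at 123 CPM (71.8 to 197).

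**Figure D5:**
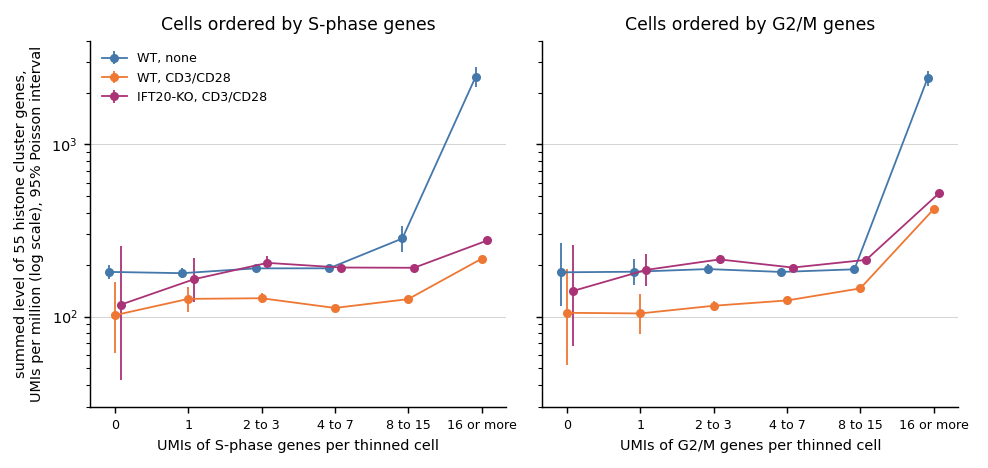
Summed level of the 55 histone cluster genes (CPM, log axis) in cells binned by UMIs of the S-phase list and of the G2/M list after thinning, for each library, with 95% exact Poisson intervals. The WT CD3/CD28 level is 216 CPM in the top S-phase bin and 419.6 CPM in the top G2/M bin. IFT20-KO lies above WT CD3/CD28 in every bin, with overlapping intervals in the sparse lowest bins. The top bins of WT none, pooled over 5 and 17 cells, lie at 2469 and 2432 CPM, and most of their UMIs come from 1 cell.

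Single genes differed in how much they followed S phase. Of 28 genes with at least 50 UMIs in the bins compared, 27 were higher at 16 or more than at 7 or fewer S-phase UMIs in WT CD3/CD28, 24 with intervals above 0 and none below, with a median of 1.27. No share of all genes is set beside this count or that of IFT20-KO below, so neither has a background. Hist1h3c had the steepest step in this library, on 6 and 67 UMIs, 0.180 to 2.01 CPM (log2 ratio 3.48, 2.28 to 4.97). Hist1h2bm went from 0.930 to 5.03 CPM (log2 ratio 2.44, 1.88 to 3.04) and Hist1h3a from 2.97 to 15.2 CPM (log2 ratio 2.36, 2.04 to 2.68). Hist1h2bj went from 7.50 to 23.8 CPM (log2 ratio 1.67, 1.46 to 1.88) and Hist1h1b from 3.99 to 12.6 CPM (log2 ratio 1.66, 1.37 to 1.95). At the other end, Hist1h1e went from 31.3 to 38.1 CPM (log2 ratio 0.28, 0.16 to 0.40) and Hist1h1c stood at 13.3 to 13.6 CPM (log2 ratio 0.03, -0.16 to 0.22). Hist2h2ac and Hist4h4 also had intervals that spanned 0, with ratios of 0.06 and -0.22. Along G2/M transcripts, from at most 7 to 16 or more UMIs, Hist1h1e had 1.09 (0.93 to 1.25) and Hist1h1c 0.89 (0.62 to 1.16). Hist2h2ac had 0.60 (0.22 to 0.96) there, while the interval of Hist4h4 again spanned 0, 0.25 (-0.81 to 1.17). By annotated 3′ end, the median step was 1.80 over 9 genes that end near the stem-loop, 0.83 over 14 that extend past it and 1.84 over 5 without an annotated one. In IFT20-KO, 27 of 28 genes were again higher, 13 with intervals above 0, with a median of 0.45. The order of genes was not the same there, and the interval of Hist1h3c spanned 0, 0.61 (-0.12 to 1.39). Hist1h3a had 1.75 (1.38 to 2.14), Hist1h2bj 1.32 (1.06 to 1.58), Hist1h2bm 1.21 (0.74 to 1.71) and Hist1h1b 0.74 (0.53 to 0.95).

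Knockout ratios were also taken within bins of the S-phase and G2/M lists. IFT20-KO over WT CD3/CD28 was 0.35 (0.31 to 0.40) at 16 or more S-phase UMIs, 0.60 (0.55 to 0.65) at 8 to 15 and 0.78 (0.70 to 0.86) at 4 to 7. In the bins of 0 and 1 UMIs, with 16 and 90 WT and 5 and 25 IFT20-KO cells, the intervals spanned 0. In cells under 8 UMIs of both lists, 12 of 13 genes with 50 UMIs were higher in IFT20-KO, 6 of them past 1.5-fold and 7 with intervals above 0. Of all genes with 50 UMIs in these cells, 54.3% were higher and 3.58% past 1.5-fold higher. Hist1h1b stood at 1.85 (1.45 to 2.25) there, Hist1h3e at 1.17 (0.75 to 1.59), Hist1h4d at 1.05 (0.71 to 1.38) and Hist1h1e at 0.83 (0.67 to 1.00). Hist1h2bj and Hist1h4i stood at 0.12 (-0.29 to 0.52) and 0.10 (-0.25 to 0.45). In cells with 16 or more of both lists, 13 of 18 were higher and 4 past 1.5-fold, against 58.1% and 3.91% of all genes, with Hist1h1b at 0.58 (0.34 to 0.81) and Hist1h1e at 0.63 (0.44 to 0.82). Hist1h3c, with 47 and 28 UMIs, was past 1.5-fold lower there, -0.63 (-1.36 to 0.08), as were 1.91% of all genes. The bins are wide, and S-phase scores within a bin were not matched between genotypes. The part of cell-cycle state in the knockout difference was therefore not tested.

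A few unstimulated cells carried much histone mRNA. Of 5263 WT none cells at or above 4056 UMIs, 20 had 16 or more S-phase or G2/M UMIs, and they held 388 histone cluster UMIs, 5.16% of the library's total. Their level was 2012 CPM (1817 to 2223), against 185 CPM in the other 5243 cells. Single cells among the 20 held 0 to 216 UMIs of these genes, and Hist1h2ae gave 131 UMIs from 6 cells. All 20 had 2 or more UMIs of Cd3 genes, 13 had a UMI of Cd4 and none had 10 or more of the B cell markers. The 2 cells with 16 or more of both lists held 226 UMIs, and those with 16 or more S-phase but under 16 G2/M UMIs held 0. The top bins of this library therefore rest on very few cells, and mostly on 1.

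Histone cluster mRNA was a larger share of the UMIs of shallow stimulated barcodes. Barcodes under 4056 UMIs stood at 227, 360.1 and 575 CPM, against 196, 150.0 and 224 CPM in the deeper ones. In WT CD3/CD28 the 197 shallow barcodes with a mitochondrial share under the median of the deeper cells stood at 1147 CPM (1023 to 1281), and the 2104 others at 308 CPM (291 to 325). In IFT20-KO the corresponding levels were 844 CPM over 750 barcodes and 543 CPM over 5926. Malat1, a nuclear RNA, was at 8738 and 6112 CPM in the shallow barcodes of the stimulated libraries and at 1061 to 1546 CPM in deeper ones. The shift was not shared by all the genes. Shallow over deeper barcodes had a log2 ratio of 2.44 in WT and 2.28 in IFT20-KO for Hist1h2ab, 2.37 and 2.09 for Hist1h1b, and 1.47 and 1.45 for Hist1h1e. For Hist1h2bj it was -0.17 and 0.03 and for Hist1h3a -0.17 and -0.20, so these mRNAs did not take a larger share in shallow barcodes. What these barcodes are was not tested.

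Most cells held few of these molecules. With cells thinned to 1400 UMIs and shallower ones left out, 801 in WT none and 421 in WT CD3/CD28, 23.0%, 21.4% and 39.3% had at least 1 UMI of the 55 genes. Without thinning the shares were 53.7%, 69.4% and 80.4%, and in the deeper cells, thinned, they were 18.2% and 25.5% for the stimulated libraries. No cell type in the sort would lack histone mRNA, so no background share could be set. Hist1h1e was seen in 5.05%, 5.56% and 13.0% of thinned cells. With deeper cells thinned to 4056 UMIs, the top 1% of cells held 7.71%, 8.84% and 7.30% of the UMIs and the top 10% held 37.8%, 43.9% and 36.7%.

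The replication-independent histones, whose genes lie outside the clusters, were compared next. Of 11 listed, 9 had 10 or more UMIs, 1 was 2-fold higher on stimulation and 0 lower, and their median was 0.41. All genes, as above, had 18.7% higher, 23.7% lower and a median of -0.11. H2afz, the H2A variant H2A.Z, was the gene past 2-fold, at 317, 950.0 and 1033 CPM and 1.59 (1.56 to 1.61). H3f3b, which encodes the replacement histone H3.3, stood at 961, 1622 and 1529 CPM. Cenpa, the centromeric H3, was lower at 24.3, 15.6 and 21.3 CPM and -0.64 (-0.76 to -0.53). None of the 9 passed 1.5-fold for the knockout, against 14% of all genes higher, with a median of 0.12.

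Genes that make and process histone cluster mRNA had a median stimulation ratio of 0.63, against -0.11 over all genes. Of 18, 3 were 2-fold or more higher (Ncbp2 of the cap-binding complex, Cpsf2 of the cleavage complex and Slbp) and 0 lower, against 18.7% and 23.7% of all genes, so the share past the fold, 3 of 18, did not stand above the background. Slbp, which binds the stem-loop, was at 77.9, 185 and 211 CPM, a ratio of 1.25 (1.19 to 1.30). Npat, the coactivator of histone genes, was at 9.21, 12.0 and 16.4 CPM, with 0.39 (0.21 to 0.56) and, for the knockout, 0.44 (0.34 to 0.55). Casp8ap2, which binds in the same nuclear bodies, had 0.72, and Eri1, an exonuclease that trims histone mRNA, had 0.75. Lsm10 and Lsm11, of the particle that directs 3′ cleavage, had 0.64 and 0.03. Hinfp, a factor of H4 promoters, was lower at -0.69, as was Zcchc6, a uridylyl transferase, at -0.84. Zfp473, a partner in 3′ processing, had 15, 38 and 44 UMIs and an interval that spanned 0. None of the 18 passed 1.5-fold for the knockout, against 14% of all genes higher, with a median of 0.11. Slbp and Casp8ap2 are also in the S-phase list.

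Histone chaperones carry new histones to DNA, and of 22 listed, 10 were 2-fold or more higher on stimulation and 1 lower, against 18.7% and 23.7% of all genes, with a median of 0.89. Chaf1a, a subunit of the assembly factor that acts at replication forks, had 20 UMIs in WT none and stood at 0.539, 30.8 and 37.3 CPM, 5.84 (5.21 to 6.55). Nap1l1, Hat1 (the acetyltransferase of new H4) and Asf1b had ratios of 2.39, 2.11 and 1.83. Spty2d1 was lower at -1.09, and Daxx, which places H3.3, stood at -0.94, Ubn1 at -0.65 and Nap1l4 at -0.36. For the knockout, 2 of the 22 passed 1.5-fold, Tonsl, which reads new H4 behind forks, at 0.69 and Hjurp, the chaperone of Cenpa, at 0.65, against 14% of all genes, and 0 did so in the deeper cells. The median was 0.16, near that of all genes. Of the other chaperones, those with the highest knockout ratios were Atrx at 0.49, Cabin1 at 0.46, and those with the lowest Ipo4 at -0.24 and Hira at -0.21. Nasp and Chaf1b are in the S-phase list, and Hjurp and Cenpa in the G2/M list.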

How the data were processed

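Gene counts per cell barcode were deposited by the authors as whole UMI counts in 1 matrix per library, made with Cell Ranger (3.1.0 in the matrix headers) on mm10, per the file headers and the submitters' processing notes. The annotation release is not given in the sources used here. The labels name a 5′ library kit and the methods a 3′ kit, and which end was read is therefore not settled.

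A barcode was kept if it had over 200 genes and if mitochondrial genes gave less than 15% of its UMIs, and no doublet caller was run. UMIs of a gene were summed over the cells of a library and divided by its total (CPM). Ratios carry 95% exact binomial, levels exact Poisson and shares of cells Clopper-Pearson intervals. Each group had 1 library, so no test, standard error or p-value was computed. A gene was past the fold at 2-fold for stimulation and 1.5-fold for the knockout, beside all genes with 10 or more UMIs over the 3 libraries. A gene at 0 was set to a floor of 3 counts. Depth was 37133949 to 116979076 UMIs a library, and 10 UMIs or fewer leave a ratio very imprecise. For S-phase and G2/M bins, and for shares of cells, cells were thinned with a fixed seed.

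Stem-loops, exons and shared 60-base windows were taken from GENCODE M21 and promoters from RefSeq, GRCm38.p6. Named genes were the 10 with the highest CPM in each library, the 5 highest and 5 lowest ratios of each comparison with at least 50 UMIs, all H1 genes, and the 5 highest and 5 lowest S-phase steps. For naming, these steps in WT CD3/CD28 took cells of at most 1 S-phase UMI as base, with 50 UMIs over both bins. That base was sparse, with at most 46 UMIs for a gene (Hist1h1e) and 1 for Hist1h3a, and 3 genes with 0 UMIs in it were dropped. The steps printed for single genes use cells of at most 7. The pathway genes named were the 4 highest and 4 lowest ratios and genes that act only on histone cluster mRNA. Genes named outside this rule (Hist1h2bf, Hist2h3b, Hist1h2bl, Hist1h2bk, the divergent pairs, Hist1h2be, Hist1h2bq and Cabin1) were chosen after their values were seen.

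The members and lists were chosen with earlier results of these data known. The 3′ end classes with their limit of 100 bases, the 2 blocks and the window share of 20% were set after values had been seen and serve as description. Alternatives were other cell filters, scalings, gene minimums and depths. Software was Python 3.11.15 with NumPy 2.4.6, pandas 2.3.3, SciPy 1.17.1 and matplotlib 3.10.9, and the ratio and thinning steps were tested on simulated data.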

Additional observations from a re-analysis of the deposited data

How the results depend on the processing

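No paired analysis was possible because each group had 1 library and no result comes from a test. The summed log2 ratio of stimulated over unstimulated WT, -0.36, was -0.43 without shallow stimulated barcodes, -0.19 with median-ratio scaling, -0.12 as a mean of per-cell fractions, -0.29 without the 20 unstimulated cells with most S-phase or G2/M UMIs, which was added after seeing the data, and -0.018 with cells thinned to 1400 UMIs. As UMIs per cell with no scaling it reversed to 0.995, the median over the 55 genes was 0.81, 25 genes were 2-fold higher and 9 lower, and Hist2h2bb and Hist1h4c reversed to 0.13 and 0.12. WT CD3/CD28 cells held more UMIs, and over all genes this median was 1.24. Counts past the fold in this section have no share of all genes beside them. The summed knockout ratio, 0.82, was 0.58 without shallow barcodes, 0.65 with median-ratio scaling, 0.995 as a mean of per-cell fractions, 1.06 thinned, 0.89 without the 5% of cells with the most UMIs, 0.87 without the 1% with the most histone UMIs, and 0.19 as UMIs per cell. On that last scale the median reversed to -0.13 (all genes -0.49), Hist2h2bb reversed to -0.0026, 11 genes were higher and 8 lower. The count of genes lower in IFT20-KO, 1, was 2 without shallow barcodes, 5 thinned, 0 with a minimum of 50 UMIs and 3 with a minimum of 1. Shares of cells with a UMI of these genes were 53.7%, 69.4% and 80.4% without thinning and 49.8%, 41.5% and 56.5% at 4056 UMIs. Thinned to 1400 without shallow barcodes, the stimulated libraries were at 18.2% and 25.5%. With the G2/M list in place of the S-phase list, the step from at most 1 to 16 or more UMIs was 2.01 in WT CD3/CD28 and 1.53 in IFT20-KO. The median of replication-independent histones without shallow barcodes was 0.44 for stimulation and 0.15 for the knockout. Of the named genes past the fold, 14 for stimulation kept their direction in 166 of 168 alternative values and 15 for the knockout in 164 of 165. Many of these genes were named for high or low ratios in the same data, so these counts are no independent support. The causes were not tested, beyond the scale that each alternative sets. Genes under 50 UMIs in both libraries of a comparison have intervals too wide to order.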

Other observations

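The barcodes left out for 15% or more mitochondrial UMIs were 222, 417 and 12 in WT none, WT CD3/CD28 and IFT20-KO CD3/CD28. They held 91, 235 and 20 UMIs of all 67 genes with a histone cluster symbol, including those under the minimum of UMIs. Their levels were 475 CPM (383 to 584), 311 CPM (273 to 354) and 816 CPM (498 to 1260).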
